A study of Mus musculus with 12 samples.

Results

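The genes described here are 47 genes of DNA replication, named by symbol: subunits of the replicative helicase and the factors that load and start it, primase and polymerases, the clamp loader and single-strand binding proteins, lagging-strand enzymes, nucleotide supply, chromatin assembly behind the fork, and a few regulators of entry into S phase. The probes of these genes were found by the array's annotation, without use of any measured value. The list of genes itself was chosen with earlier results of these data known. A probe annotated to 1 gene alone was present for 32 of the 47, out of 6774 such genes on the array, and each of the 32 had 1 probe. Chaf1a, Gins2 and Pole2 had only probes annotated to several genes, and no probe was annotated to Pcna, Tk1, Rfc2, Rfc3, Rfc4, Rpa1, Cdc6, Cdt1, Orc1, Orc6, E2f1 or Ccne2.

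The samples were primary skin keratinocytes of C57Bl/6NCr mice. Cells received either an adenovirus encoding deltaNp63alpha, the p63 isoform with a shortened N terminus, or one encoding beta-galactosidase (beta-gal) as the control, so that both groups were virus-treated. Total RNA was taken 41 h after transduction, from cells held for 24 h at 0.05 mM calcium (low) or at 0.12 mM calcium (high). The 12 spotted cDNA arrays each compared deltaNp63alpha with beta-gal RNA of 1 calcium level, 6 arrays per level, and no array compared the calcium levels directly. On the forward arrays deltaNp63alpha RNA carried Cy5, and on the reversed arrays it carried Cy3. The sources used here do not give the viral promoter and dose or the number and age of the mice. Because the submitters describe all arrays as technical repeats, the p-values may measure only technical spread.

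A forward and a reversed array of the same calcium level and repeat number made 1 dye-swap pair. Its value is the forward log2 ratio minus the reversed one, divided by 2, which gives 6 pairs, 3 per calcium level. Positive values are read as higher in the RNA labelled deltaNp63alpha. That direction is assumed, not settled: it takes the deposited ratio as Cy5 over Cy3, the usual form, whereas deltaNp63alpha is entered as channel 2 throughout, the reversed arrays included. As deposited, the forward and reversed arrays of a pair had a median correlation over rows of 0.60 at low and 0.255 at high calcium. After turning, the correlation was therefore below 0 in all 6 pairs, from −0.71 to −0.12. If the deposited ratios had already been turned, the pair value would be the mean of both arrays with their signs kept. That reading is given beside the main counts of members, the values that lead a group and the called genes of other lists. Counts and medians of the other lists are given for the turned reading alone. In the sentences that follow, above and below 0 refer to the turned reading unless the kept signs are named.

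Replication of the genome starts at origins, where the MCM hexamer is loaded in G1 and is turned into an active helicase in S phase by Cdc45 and the GINS complex. Polymerase alpha with primase lays down primers, and polymerases epsilon and delta extend the leading and lagging strands. Many of these genes are transcribed together at the G1/S boundary under the control of E2F factors and the retinoblastoma family. In the epidermis cells replicate mainly in the basal layer, where deltaNp63alpha is the main p63 isoform, and a rise in extracellular calcium starts the withdrawal of cultured keratinocytes from the cell cycle.

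The promoter sequences of RefSeq (build GRCm38.p6, 250 bases before to 50 after each start site) were searched for the E2F words TTTCCCGC, TTTCGCGC, TTTGCCGC and TTTGGCGC on both strands, with overlapping matches counted. At least 1 word was found in 14 of the 39 members present in that table (35.9%), against 704 of all 27025 genes (2.60%) and 2.26% of all 32851 promoters. Of the 27 members that also had a probe, 9 held a word: Mcm3, Mcm5, Mcm6, Mcm7, Pola1, Pold1, Lig1, Uhrf1 and Dnmt1. The 30 bases around 1 match are printed for 5 of these, 3 subunits of the helicase and the catalytic subunits of polymerases alpha and delta, as examples of the core helicase and polymerase genes. Capitals mark the match, and each line reads 5′ to 3′ along the gene's strand.

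Mcm3: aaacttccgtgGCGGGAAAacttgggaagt

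Mcm6: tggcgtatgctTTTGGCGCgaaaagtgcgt

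Mcm7: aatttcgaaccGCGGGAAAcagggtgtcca

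Pola1: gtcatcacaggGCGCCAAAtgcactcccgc

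Pold1: cacggcggcgtatcttgtgGCGGGAAAagc

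All 5 genes lie on the minus strand of GRCm38.p6. The Mcm3 window is chr1:20820275-20820304 and its match begins at position 20 from the start site, and the Pold1 window is chr7:44548766-44548795 with a match at position 40. The Mcm6 window, chr1:128359797-128359826, has its match at position −110. The Mcm7 window, chr5:138172030-138172059, has its match at position −165, and the Pola1 window, chrX:93632275-93632304, at position −138. The matches of Mcm3, Mcm7, Pola1 and Pold1 are the reverse complement of a searched word, and that of Mcm6 is a word as written. A match is a description of these letters and not evidence of binding.

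How much was measured differed widely between arrays. The number of probes with a value ran from 3366 to 9096 per array, and the arrays of repeats 2 and 3 at low calcium and of repeat 3 at high calcium, which form a separate run of experiment numbers in the labels, were the sparse ones. Of the 32 members, 27 had a pair value in the first low calcium pair, 28 in each of the first 2 high calcium pairs, but 14, 8 and 6 in the sparse pairs. Mcm4, Pole, Pold1 and Dut had a value in all 6 pairs, Prim1 in 1 and Pola2 in none. The ratios hold no absolute level, so neither the level of a member nor the presence of the labelled cell type could be read from them. In bulk RNA, fewer cells of a type and less RNA per cell cannot be told apart.

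Trp63, the gene that encodes deltaNp63alpha, had pair values of −0.78 and 0.45 in low calcium repeats 1 and 2, and of −0.59 and −0.51 in high calcium repeats 1 and 2. The probe thus lay below 0 in 3 of 4 pairs, against the label. The fitted log2 ratio was −0.16 ± 0.25 (SE) at low calcium and −0.55 ± 0.25 at high calcium, with limma adjusted p of 0.919 and 0.446. Which part of the transcript the probe covers, and so whether it could detect the viral copy, is not known from the sources used. With the signs of the reversed arrays kept, the values were −0.83 at low and 0.16 at high calcium.

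No replication gene passed the test at either calcium level. At low calcium 0 of the 14 members tested had a limma adjusted p under 0.05, against 0.409% of all 4646 rows tested (19 rows). An unadjusted p under 0.05 was found for 1 member (7.1%), beside 9.4% of all rows. Of the 14 members 8 lay above 0 (57.1%, beside 53.5% of all rows) and 6 below. Their median log2 ratio was 0.056 beside 0.017 over all rows. With the signs of the reversed arrays kept, 11 of the 14 had the other sign, 7 lay above 0, the median was 0.035, and 763 rows but 0 members were called. The median of the turned values was −0.0015 with the array run as a term in the fit, and 0.25 over the 8 members left without low calcium repeat 1. The smallest adjusted p was 0.464 and the estimates ran from −0.27 to 0.64, so that members' estimates stayed within a 1.56-fold difference.

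At high calcium 26 members could be tested, and again 0 were called by limma, against 1.39% of all 7263 rows (101 rows, 40 higher and 61 lower). With the arrays brought to the same spread 14 rows were called, 1 higher and 13 lower, and 0 members, and with the signs kept 0 rows were called. Unadjusted p-values under 0.05 were found for 3 members (11.5%), a share close to the 11.6% of all rows. Above 0 lay 21 of the 26 members (80.8%) beside 50.6% of all rows, and the members' median was 0.14 beside 0.0054, but with the signs of the reversed arrays kept 15 of the 26 had the other sign and the median was −0.076. The estimates ran from −0.64 to 0.77 and the smallest adjusted p was 0.149. The 95% interval lay within a 2-fold change in either direction for 21 of the 26 members at high calcium and for 13 of the 14 at low calcium.

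**Figure D1:**
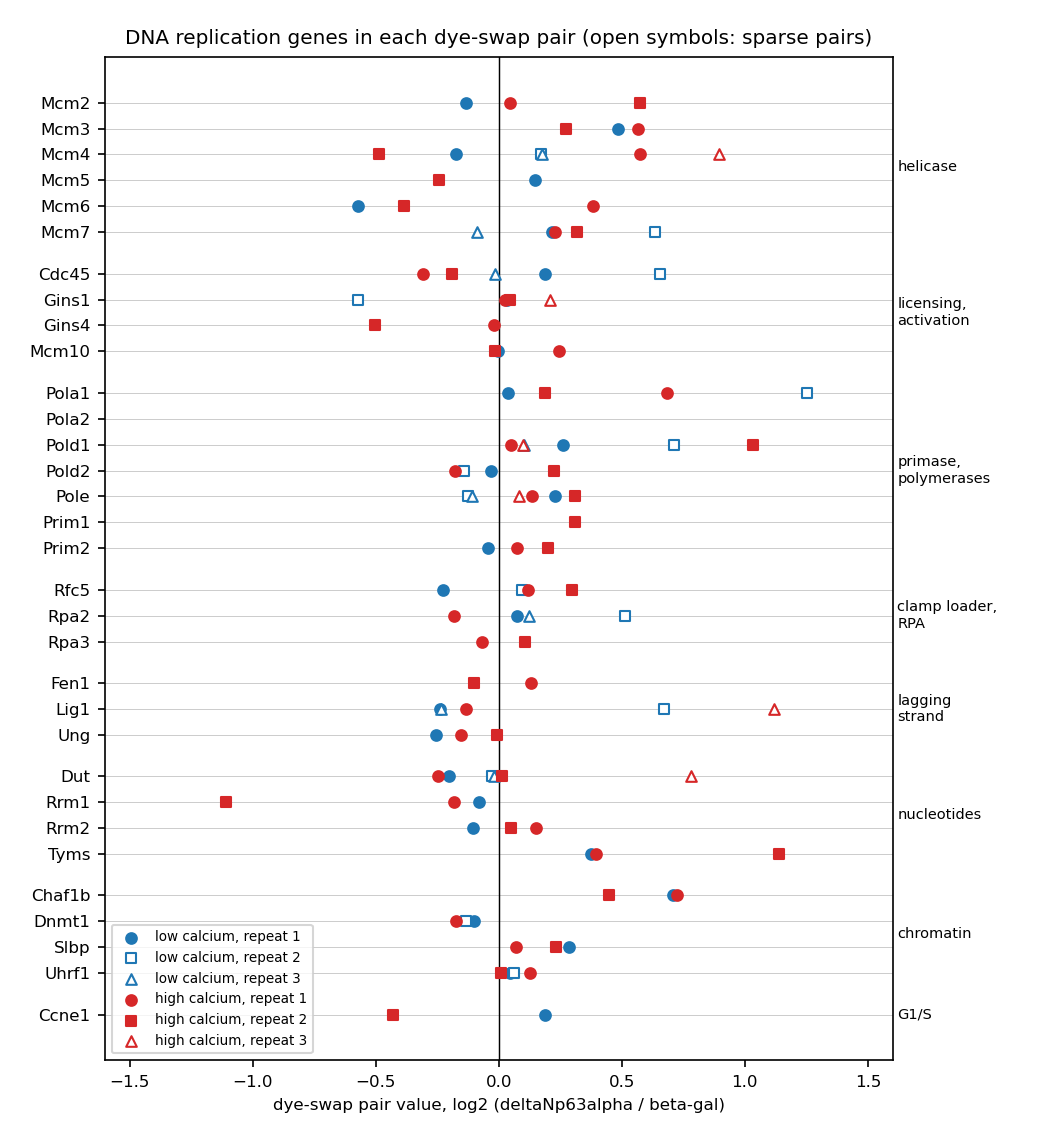
Dye-swap pair values (log2, deltaNp63alpha over beta-gal) of the replication genes, 1 row per gene grouped by role; blue symbols are low and red symbols high calcium pairs, and open symbols are the sparse pairs. Most points lie between −0.5 and 0.75. Tyms, Chaf1b, Mcm3, Pold1, Pola1, Uhrf1 and Slbp are among the genes with all their points to the right of 0. Rrm1, Ung, Dnmt1 and Gins4 are among those with all points to the left.

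The MCM helicase subunits form the ring that unwinds the parental strands. All 6 had a probe, 5 could be tested at high calcium and 4 of these lay above 0, with a median of 0.31 and a range of −0.0019 to 0.42, whereas with the signs kept 2 of the 5 lay above 0 and the median was −0.10. Mcm3 had pair values of 0.48 at low calcium (repeat 1) and of 0.56 and 0.27 at high calcium (repeats 1 and 2). Its ratio was above 0 on each of the 6 arrays that measured it, from 0.15 to 0.91 after the reversed arrays were turned. The fitted high calcium value was 0.42 ± 0.19 (SE, n = 2 pairs), a 1.34-fold difference, with an adjusted p of 0.448 by limma. With the signs kept it was 0.23.

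Mcm7, another subunit of the ring, gave 0.21, 0.64 and −0.087 in the low calcium pairs and 0.23 and 0.32 in the high calcium pairs. It was thus above 0 in 4 of 5 pairs, and the estimates of both levels were nearly the same, 0.25 ± 0.16 (n = 3 pairs) and 0.27 ± 0.20 (n = 2), with limma adjusted p of 0.700 and 0.699. Mcm4, measured in every pair, gave −0.17, 0.17 and 0.18 at low calcium and 0.57, −0.49 and 0.89 at high calcium. Its high calcium pairs disagreed in sign and covered all of the low calcium ones, and the estimates were 0.058 ± 0.21 and 0.33 ± 0.21. Mcm6 also changed sign, with −0.57 at low calcium and 0.38 and −0.39 at high calcium. Mcm2 gave −0.13 at low calcium and 0.044 and 0.57 at high calcium. Mcm5 had only 1 pair at each level, 0.15 and −0.24, and was not tested. The pair values of the subunits were thus of mixed sign, and differences between the subunits were not tested.

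The factors that turn the loaded ring into a moving helicase were of mixed sign. Of the 4 tested at high calcium 2 were above 0, with a median of −0.078 and a range of −0.26 to 0.11. With the signs kept 2 of the 4 lay above 0 as well, with a median of −0.0083. Cdc45, which binds the ring to form the active helicase, gave 0.19, 0.66 and −0.016 at low calcium and −0.31 and −0.19 at high calcium. Its high calcium pairs lay below all of its low calcium pairs. The estimates were 0.28 ± 0.16 and −0.25 ± 0.20, and their difference, high minus low, was −0.53 ± 0.26, with an unadjusted p of 0.0612 and an adjusted p of 0.9997 by limma. With the signs kept the values were −0.32 at low and 0.083 at high calcium, and the difference had the other sign, 0.40. Gins1, a subunit of the GINS complex, gave 0.035 and −0.57 at low calcium and 0.026, 0.044 and 0.21 at high calcium. The low calcium estimate of −0.27 ± 0.19, the lowest of that level, thus rested on a single sparse pair, and it was 0.55 with the signs kept. Gins4, another GINS subunit, gave −0.021 and −0.50 at high calcium, and Mcm10, which helps to activate the helicase, gave −0.0020 at low and 0.25 and −0.016 at high calcium.

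The primase and polymerase subunits were above 0 in 5 of 5 cases at high calcium, with a median of 0.18, and in 2 of 4 at low calcium, but with the signs kept in 1 of 5 (median −0.053) and 2 of 4. Pola1, the catalytic subunit of polymerase alpha, gave 0.039 and 1.25 at low calcium and 0.68 and 0.19 at high calcium. All 4 pairs were above 0, and the highest came from the sparse low calcium repeat 2, in which the 2 arrays read −0.39 and, after turning, 2.89. The low calcium estimate of 0.64 ± 0.26 was the highest of that level and the only one there with an unadjusted p under 0.05 (adjusted p = 0.464 by limma), and the high calcium estimate was 0.44 ± 0.26 (adjusted p = 0.621). Both turned to the other side with the signs kept, at −0.84 and −0.037.

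Pold1, the catalytic subunit of polymerase delta, gave 0.26, 0.71 and 0.10 at low calcium and 0.049, 1.03 and 0.10 at high calcium. It was the only one of the 4 genes measured in all 6 pairs that was above 0 in each, and the levels overlapped fully. The estimates were 0.36 ± 0.20 and 0.39 ± 0.20, with limma adjusted p of 0.605 and 0.493. The single arrays disagreed: after turning, its 6 reversed arrays read 0.32 to 2.23, whereas 5 of its 6 forward arrays lay below 0. With the signs kept the high calcium value was −0.71, so its direction rests on the reading of the dyes. Pole, the catalytic subunit of polymerase epsilon, gave 0.23, −0.125 and −0.11 at low calcium and 0.13, 0.31 and 0.083 at high calcium. Its estimates of −0.0017 ± 0.14 and 0.18 ± 0.14 were the most precise of the members. Pold2, an accessory subunit of polymerase delta, ran from −0.18 to 0.23 over 4 pairs, the primase subunit Prim2 from −0.043 to 0.20 over 3, and the primase subunit Prim1 had 1 pair, at 0.31.

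Clamp loading and strand protection were represented by 3 genes. Rfc5, a small subunit of the complex that loads the sliding clamp, gave −0.23 and 0.095 at low calcium and 0.12 and 0.30 at high calcium. Its high calcium pairs lay above its low calcium pairs, by 0.27 ± 0.26 in the fit. Rpa2, a subunit of the single-strand binding protein RPA, gave 0.075, 0.51 and 0.12 at low calcium and −0.18 in its single high calcium pair. Rpa3, the smallest RPA subunit, gave −0.068 and 0.11 at high calcium. With the signs kept 0 of the 2 genes tested at each level lay above 0. Rfc5 then stood at −0.61 at low and −0.46 at high calcium, Rpa2 at −0.088 at low and Rpa3 at −0.49 at high calcium.

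The enzymes of the lagging strand and of uracil excision were likewise of mixed sign. Lig1, the ligase that joins Okazaki fragments, gave −0.24, 0.67 and −0.24 at low calcium and −0.13 and 1.12 at high calcium. The 2 high values came from sparse pairs, and the high calcium estimate of 0.49 ± 0.29 had an adjusted p of 0.598 by limma. It left out the forward array of the well-filled high calcium repeat 2, which read −2.04 and had no reversed partner. With pairs of 1 array kept, the high calcium estimate was on the other side, at −0.35. With the signs kept the high calcium estimate of Lig1 was −0.0024. Of the 3 genes of this group tested there, only Ung then lay above 0, at 0.22, with Fen1 at −0.34. Fen1, which cuts the flaps of those fragments, gave 0.13 and −0.10 at high calcium. Ung, which removes uracil from DNA, gave −0.25 at low calcium and −0.15 and −0.0065 at high calcium, below 0 in each of 3 pairs by up to 0.25 on the log2 scale.

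The nucleotide supply genes included the highest and the lowest turned value at high calcium, an order that did not hold with the signs kept, where Gins1 (0.33) was highest and Pold1 (−0.71) lowest. Tyms, the synthase that makes thymidylate, gave 0.38 at low calcium and 0.40 and 1.14 at high calcium, all above 0. The highest pair rested on 1 array: in high calcium repeat 2 the forward array read 0.27 and the turned reversed array 2.01. The high calcium estimate was 0.77 ± 0.22 (SE, n = 2 pairs), a 1.70-fold difference, with an unadjusted p of 0.00528 and an adjusted p of 0.149 by limma. Under the kept-sign reading it was −0.43.

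Rrm1, the large subunit of ribonucleotide reductase, gave −0.079 at low calcium and −0.18 and −1.11 at high calcium. It was below 0 on each of its 6 arrays, and the low value of high calcium repeat 2 was present on both arrays of the pair, at −1.39 and −0.82. The estimate was −0.64 ± 0.24 (n = 2 pairs), with an adjusted p of 0.274 by limma, and was −0.20 with the signs kept. Rrm2, the small subunit of the same enzyme, did not share it, with −0.10 at low calcium and 0.15 and 0.051 at high calcium. Dut, which removes dUTP, gave −0.20, −0.028 and −0.020 at low calcium and −0.25, 0.014 and 0.78 at high calcium. Its one high value came from the sparse high calcium repeat 3, where all 6 members with a value lay above 0, from 0.083 to 1.12.

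Among the genes that act behind the fork, Chaf1b, a subunit of the chromatin assembly factor CAF-1, gave 0.71 at low calcium and 0.72 and 0.45 at high calcium. The 3 pairs were close to each other, and of its 7 arrays 6 were above 0, the exception being a sparse low calcium array at −0.047. The high calcium estimate was 0.59 ± 0.19 (n = 2 pairs), a 1.50-fold difference, with an unadjusted p of 0.0116 and an adjusted p of 0.212 by limma. Read with the deposited signs it was −0.10. Slbp, which binds the stem-loop of histone mRNAs, gave 0.28 at low and 0.072 and 0.23 at high calcium. Uhrf1, which recognises hemimethylated DNA, stayed between 0.0090 and 0.13 in 4 pairs, and Dnmt1, the maintenance methyltransferase it recruits, between −0.17 and −0.10 in 3. Ccne1, the cyclin that drives entry into S phase with Cdk2, gave 0.19 at low and −0.43 at high calcium, with 1 pair each.

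**Figure D2:**
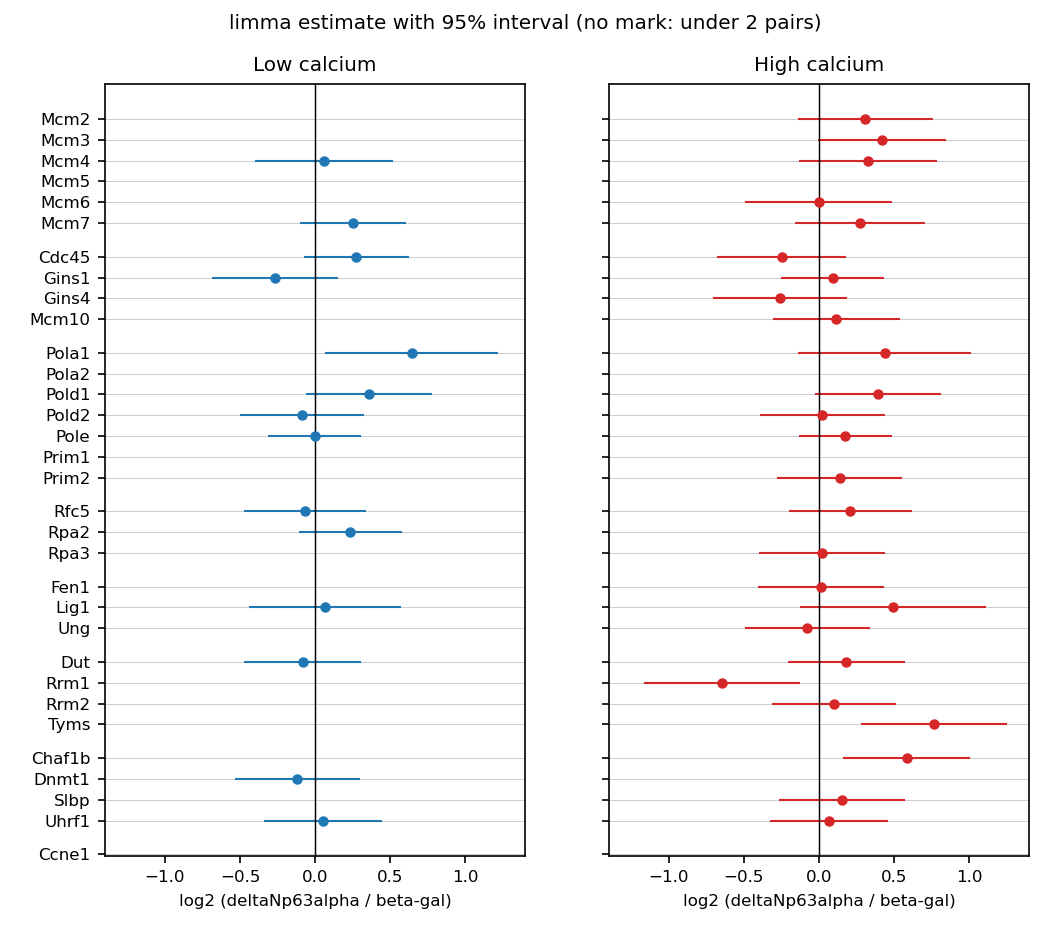
limma estimates of the log2 ratio with 95% intervals at low (left) and high calcium (right); genes with fewer than 2 pairs at a level have no mark. Intervals that miss 0 are seen for Pola1 at low calcium and for Tyms, Chaf1b and Rrm1 at high calcium, and none of these passed the adjustment over all rows.

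Over both calcium levels together 12 members could be tested, and 0 were called by limma, against 2.52% of all 4209 rows (106 rows; 1232 with the signs kept). Above 0 lay 10 of the 12 (83.3%) beside 58.6% of all rows, with a median of 0.079 beside 0.035 over all rows. An unadjusted p under 0.05 was found for 2 members (16.7%), beside 14.1% of all rows. Without low calcium repeat 1 the median was 0.25 over the 7 members left, and with the signs kept it was 0.0036, with 6 of 12 above 0. Pola1 had a mean over the levels of 0.54 ± 0.19 (above 0 in 4 of 4 pairs, adjusted p = 0.201 by limma). It was called with the array run as a term (0.84, adjusted p = 0.0163) and lay on the other side, at −0.44 and not called, with the signs kept. Pold1 followed with 0.38 ± 0.14 (6 of 6 pairs, adjusted p = 0.219). With the signs kept, Pold1 and Rfc5 were called on the other side, at −0.75 and −0.54. Lig1 had 0.28 ± 0.19, Mcm7 0.26 ± 0.13 and Mcm4 0.19 ± 0.15, while Gins1 and Pold2 were lowest at −0.088 ± 0.13 and −0.031 ± 0.13. All 12 intervals lay within a 2-fold change. With pairs of 1 array kept, Lig1 (−0.14), Gins1 (0.089) and Pold2 (0.023) had the other sign.

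The difference between the calcium levels was tested in the same 12 genes. By limma 0 were called, as were 0% of all 4209 rows, and 0 members had an unadjusted p under 0.05, against 107 of all rows. Above 0 lay 10 of the 12 (83.3%) beside 49.9% of all rows, with a median of 0.14 beside −0.00042. With the signs kept, however, 6 of the 12 lay above 0 and the median was −0.059. On forward arrays alone the median was −0.0054. After Cdc45, described above, the estimates farthest from 0 were 0.43 ± 0.37 for Lig1, 0.36 ± 0.25 for Gins1 and 0.27 ± 0.26 for Rfc5, followed by 0.27 ± 0.30 for Mcm4 and 0.26 ± 0.26 for Dut. With the signs kept Gins1, Mcm4 and Dut had the other sign. Lig1 had the other sign, at −0.42, with pairs of 1 array kept. The 95% interval reached beyond a 2-fold change for 3 of the 12, so the data do not bound the difference to less than 2-fold in those genes.

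Both arrays of a pair were then compared after the reversed one was turned. In the well-filled pairs both lay on the same side of 0 for 13 of 27 members in low calcium repeat 1, 17 of 28 in high calcium repeat 1 and 14 of 28 in high calcium repeat 2. Over all rows the shares were 39.8%, 39.2% and 46.4%. In the sparse pairs it held for 4 of 14, 1 of 8 and 3 of 6 members, beside 20.4%, 29.2% and 25.9% of all rows. Of the 26 members with 6 or more arrays, Mcm3 and Rrm1 were on 1 side of 0 on every array, beside 3.69% of all 7989 such rows (295 rows), a count chosen after the values were seen. The value shared by both dye orientations, which the pair value removes, was large and negative for several members. Its median over pairs was −0.71 for Pold1 and for Mcm10, −0.80 for Prim1 (1 pair), −0.55 for Mcm5 (2 pairs) and −0.49 for Rfc5. On the positive side it was 0.36 for Slbp, 0.35 for Dut and 0.33 for Uhrf1 and for Gins1. The part of this shared value in the members' values was not tested.

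**Figure D3:**
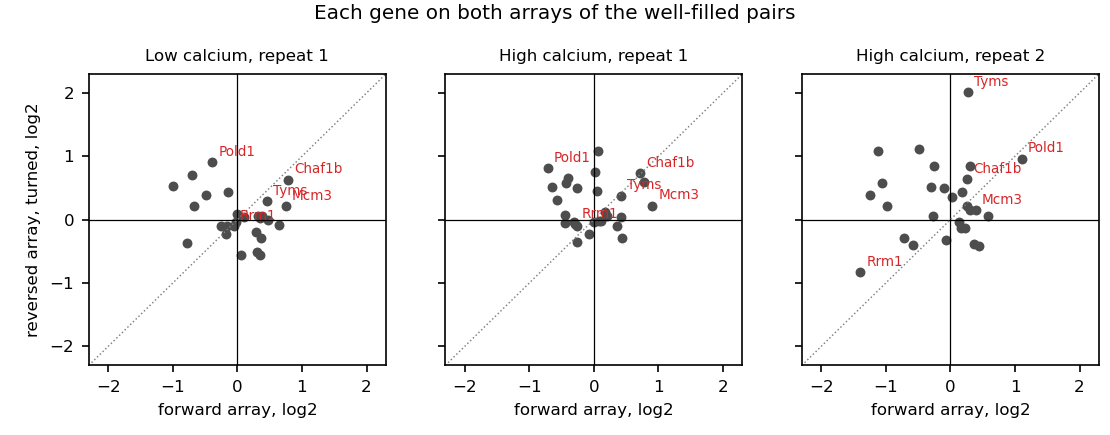
Forward array against turned reversed array (log2) for each replication gene in the 3 well-filled pairs; points on the dotted line have the same ratio on both arrays, and points in the upper left or lower right quadrant change side with the dye. In low calcium repeat 1, 13 of 27 points lie in the quadrants of equal sign, and Pold1 lies in the upper left quadrant in 2 of the 3 pairs.

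The pairs also ranked the members loosely. Between high calcium repeats 1 and 2 the pair values of 25 members had a Pearson r of 0.23, beside 0.50 over 6957 rows, and 18 of the 25 had the same sign. Set against low calcium repeat 1, they gave an r of 0.36 (high calcium repeat 1, 25 members) and 0.44 (repeat 2, 24 members), beside 0.61 and 0.64 over all rows. These correlations run across genes, and genes are no independent replicates.

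The members were also read by whether their promoter held an E2F word. At high calcium 6 of the 7 tested members with a word were above 0, with a median of 0.39, and 11 of the 14 without one, with a median of 0.11. At low calcium 5 of 6 with a word were above 0 (median 0.16) and 2 of 5 without one (median −0.067). With the signs kept the high calcium counts were 3 of 7 (median −0.0024) and 6 of 14 (median −0.10), and the low calcium counts 3 of 6 and 2 of 5. The ranges overlapped: at high calcium the members with a word ran from −0.0019 (Mcm6) to 0.49 (Lig1) and those without one from −0.64 (Rrm1) to 0.77 (Tyms). The words were chosen with these values known, and the difference was not tested.

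Other genes of the same processes, listed apart from the 47, gave few calls at high calcium and 0 at low calcium, where 4 to 21 genes per list were tested by limma and 0 to 3 per list had an unadjusted p under 0.05. Over all rows 0.409% were called at low and 1.39% at high calcium by limma. An unadjusted p under 0.05 was found in 9.4% and 11.6% of them. Of 9 other origin and licensing genes 0 were called at high calcium (2 with an unadjusted p under 0.05), with a median of 0.057. Cdc7, the kinase that fires licensed origins, gave 0.54 and 0.60 (estimate 0.57 ± 0.19, limma adjusted p = 0.216), while Orc4, a subunit of the origin recognition complex, gave −0.42 and −0.70 (−0.56 ± 0.19, adjusted p = 0.232). Of 17 other nucleotide supply genes 0 were called (3 with an unadjusted p under 0.05), with a median of 0.027. Cmpk1, which phosphorylates UMP and CMP, gave −0.55 and −1.06, and Ctps, which makes CTP, gave 0.64 and 0.43, with limma adjusted p of 0.104 and 0.250.

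Of 9 other genes of the fork and the lagging strand 1 was called, on the lower side. Chtf8, part of the alternative clamp loader that acts in sister chromatid cohesion, gave −1.11 in its low calcium pair and −1.02 and −0.80 at high calcium (−0.91 ± 0.19, limma adjusted p = 0.0481). It had the other sign, 0.14, on the reversed arrays alone. Timeless, of the fork protection complex, was below 0 in 5 of 5 pairs, from −0.75 to −0.23, with an adjusted p of 0.0750 over both levels by limma. The list was of mixed sign: Rnaseh1 gave 0.24 and 0.31 at low and 0.12, 0.35 and 0.31 at high calcium. At low calcium Top1 stood at −0.60 ± 0.19 and Clspn at 0.53 ± 0.19, with limma adjusted p of 0.286 and 0.377. Of 9 genes of replication-coupled repair and chromatin 1 was called. Nasp, a histone chaperone, gave −0.18, 0.46 and −0.54 at low calcium and −0.75, −1.01 and −0.78 at high calcium (−0.85 ± 0.18, adjusted p = 0.0351). Its high calcium pairs lay below all of its low calcium pairs, but the difference between the levels had an adjusted p of 0.9997. Without any 1 of the high calcium repeats its adjusted p was 0.0568, 0.158 or 0.0778.

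In the list of E2F, retinoblastoma and G1/S control genes 2 of 16 were called at high calcium, both lower, and the median was −0.19. An unadjusted p under 0.05 was found for 4 of the 16, beside 11.6% of all rows. Cdkn1a, the cyclin-dependent kinase inhibitor p21, gave −0.87 and −0.60 at low calcium and −1.04 and −1.54 at high calcium. It was below 0 in 4 of 4 pairs. The value was −1.29 ± 0.20 at high calcium (limma adjusted p = 0.0102) and −0.73 ± 0.20 at low calcium (adjusted p = 0.194). Over both levels it stood at −1.01 ± 0.14 (adjusted p = 0.00282), but at −0.055 on forward arrays alone (limma adjusted p = 0.902). With the signs kept the value over both levels was called on the other side, at 0.58 (adjusted p = 0.0370). Cdkn2b, the inhibitor p15 of Cdk4 and Cdk6, gave −1.36 at low calcium and −0.84 and −1.05 at high calcium (−0.95 ± 0.19, adjusted p = 0.0387). With the signs kept, at high calcium, Cdkn1a stood at 0.34 and Nasp at 0.14, on the other side. Cdkn2b, at −0.48, and Chtf8, at −1.05, kept their side, and none of these genes was called in that reading. On the arrays of either dye orientation alone, none of Chtf8, Nasp, Cdkn1a and Cdkn2b was called at high calcium. Chtf8, Cdkn1a and Cdkn2b had 2 high calcium pairs each and could not be tested there with either left out. Of 32 mitosis and G2/M genes 1 was called at high calcium, with a median of 0.072: Ube2c, which conjugates ubiquitin for the anaphase-promoting complex, at −0.85 and −1.28 (−1.06 ± 0.20, adjusted p = 0.0335). It stood at 0.27 under the kept signs.

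**Figure D4:**
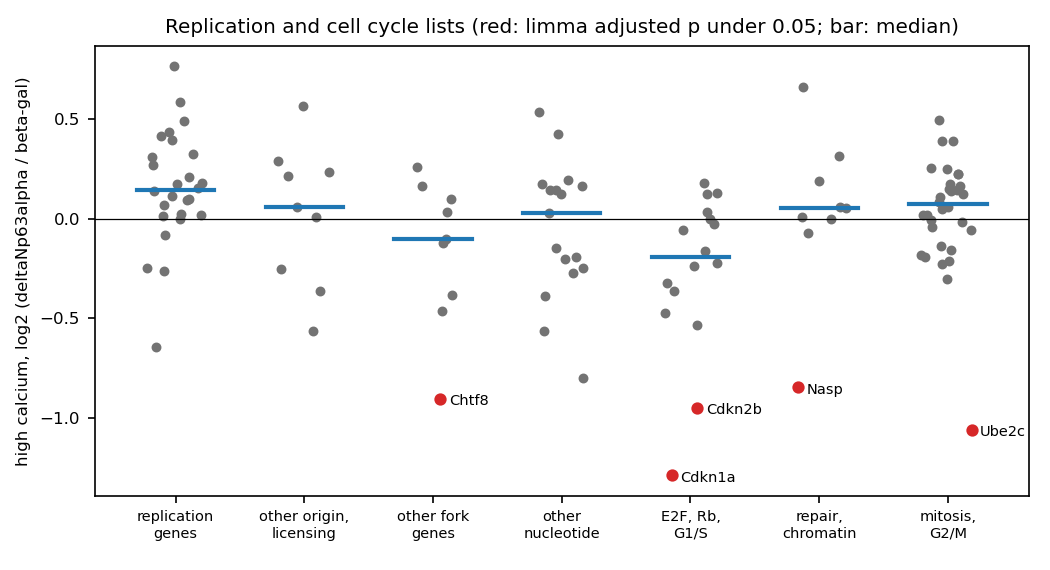
limma estimates of the log2 ratio at high calcium for the replication genes and for 6 further lists, 1 point per tested gene, with the list median as a bar and called genes in red. The 26 replication genes hold no red point, and the 5 red points of the other lists all lie below −0.75.

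Markers of cell types were read in the same way. At high calcium 1 of 12 keratinocyte markers was called, Krt10, a keratin of differentiating layers, at −1.57 ± 0.20 (limma adjusted p = 0.00821, and −0.027 with the signs kept). Its high calcium pairs read −1.34 and −1.81, and it was not called on the arrays of either dye orientation alone. The median of the list was −0.28. Above 0 there lay Col17a1 (0.22), Sfn (0.21), Lamb3 (0.13), Krt5 (0.11) and Itga6 (0.061). Below 0, beside Krt10, lay Cdh1, Cdh3, Epcam, Itgb4, Pkp1 and Trp63, which is itself on that list. At low calcium 0 of 8 were called (2 with an unadjusted p under 0.05) and the median was −0.23. Over both levels 1 of 7 was called, Cdh3, the P-cadherin of basal keratinocytes, below 0 in 5 of 5 pairs at −0.58 ± 0.13 (adjusted p = 0.0354). Its call was lost without low calcium repeat 1 (adjusted p = 0.0876) or repeat 3 (adjusted p = 0.0715), and with the signs kept it stood at 0.25. Of 8 fibroblast, 2 melanocyte, 4 endothelial and 9 immune markers tested at high calcium 0 were called (0 with an unadjusted p under 0.05), with medians between −0.075 and 0.14. At low calcium and over both levels 0 of these 4 lists' markers were called as well. An unadjusted p under 0.05 was found for 2 of 5 endothelial and 1 of 8 immune markers at low calcium. Over both levels it was found for 2 of 4 and 1 of 7. The part of the cell type markers in the members' values was not tested.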

How the data were processed

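Per the labels' protocols, TRIzol-extracted total RNA received Cy3 or Cy5 through a Genisphere kit. The authors deposited 1 log2 dye ratio per probe and array, with the base read from the range (−7.88 to 4.60). The scanner, the background correction, the normalization and any filter on spots are not stated in the sources used here. Array medians lay between −0.0005 and 0.0005. Sparse arrays give less precision, and the number of arrays limits it.

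Of 9558 probes 7457 had 1 symbol in the platform annotation, 481 had several and 1620 were unlisted. Symbols were updated through a mouse gene table (7368), and probes of 1 gene were averaged, giving 8875 rows. Arrays were centred on their medians and combined into 6 pairs; a pair lacking 1 array was missing. limma 3.58.1 (R 4.3.3; lmFit, eBayes) fitted both calcium levels together. A row was tested with at least 2 pairs of a level (of each level for the mean and the difference) and called at a Benjamini-Hochberg adjusted p under 0.05 over all rows. Every adjusted p in the text is limma's. The procedure was tested on simulated data.

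Named were Trp63, members with a value in all 6 pairs, and the 5 highest and 5 lowest members per comparison. Other members are given for completeness. From the other replication and cell cycle lists and the keratinocyte markers the called genes were named, or else the 2 of smallest p at high calcium. At low calcium genes of smallest p were not named by this rule. Timeless, Rnaseh1, Top1, Clspn and the uncalled keratinocyte markers were added outside it. No gene was named from the fibroblast, melanocyte, endothelial and immune lists. The members, lists and E2F words were chosen with earlier results of these data known. Pairs of equal repeat number at the 2 calcium levels showed correlations of −0.026, −0.11 and 0.20 of their deviations over 1381 rows, so the numbers were not taken to pair them.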

Additional observations from a re-analysis of the deposited data

How the results depend on the processing

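No replication gene was called at low calcium, at high calcium or in the difference under any alternative run. Over both levels the count of 0 became 2 with the signs of the reversed arrays kept (Pold1 −0.75, adjusted p = 0.0383, and Rfc5 −0.54, adjusted p = 0.0318), 1 on forward arrays alone (Mcm7 0.43, adjusted p = 0.0440), 2 on reversed arrays alone (Pold1 1.13, adjusted p = 0.0194, and Rfc5 0.78, adjusted p = 0.0353) and 1 with the array set as a block (Pola1 0.84, adjusted p = 0.0163), all by limma. The high calcium median of 0.14 was 0.39 on reversed arrays alone. Leaving out 1 pair at a time gave medians of 0.053 to 0.25 at low calcium, 0.10 to 0.20 at high calcium, 0.061 to 0.25 over both levels and 0.018 to 0.37 for the difference, always with 0 calls. The replicate block, fitted as a random block with a correlation of −0.088 because a fixed one could not be estimated in sparse rows, also gave 0 members called, and 19, 103, 151 and 0 rows.

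With the signs kept, Cdkn1a was 0.34 at high calcium and 0.58 over both levels and at high calcium Nasp was 0.14 and Ube2c 0.27, and over both levels Cdh3 was 0.25; Chtf8 was 0.14 on reversed arrays alone. At high calcium the calls of Cdkn1a, Cdkn2b, Nasp, Chtf8 and Ube2c were each lost on forward arrays alone and on reversed arrays alone. Each was also lost with each array as a value, with pairs of 1 array kept and with all arrays scaled to 1 spread. A trended, robust variance removed these calls as well. Krt10 at high calcium was not called on either dye orientation alone, with pairs of 1 array kept or under a trended, robust variance. Over both levels the calls of Cdkn1a and Cdh3 were lost on forward arrays alone, at −0.055 and −0.33. They were also lost with pairs of 1 array kept, with each array as a value and at equal spread.

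Counts of all rows called at low calcium, at high calcium and over both levels, 19, 101 and 106, became 763, 0 and 1232 with the signs kept, 33, 0 and 1464 on forward arrays, 330, 1 and 540 on reversed arrays, 13, 57 and 157 with each array as a value, 0, 0 and 10 with pairs of 1 array kept, 0, 14 and 23 at equal spread, 0, 0 and 28 under a trended variance, 4, 14 and 37 in complete rows and 47, 134 and 144 with the array set block. Leaving out 1 pair gave 6 to 51, 33 to 151 and 39 to 127. Causes were not tested. Fits without high calcium repeat 1 or 2 used 1 variance for all rows.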
